A study of Mus musculus with 29 samples.

Results

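The SWI/SNF genes described here are 10 rows of the count table, chosen by symbol: Smarca2, Smarca4, Smarca5, Smarcb1, Smarcc1, Smarcc2, Smarcd1, Smarce1, Arid1a and Arid1b. All 10 were found among 24448 gene rows. They were measured in single mouse embryos made by nuclear transfer. There, an oocyte without its own nucleus receives that of a somatic donor, here a cumulus cell from the layer around the oocyte. All embryos were of the BDF1 strain, were activated for 6 h in medium with strontium (10 mM), CB and EGTA, and were collected as 2-cell embryos 28 h after activation. The control group held 9 embryos cultured without drug, and the HU group held 8 embryos kept in 10 uM hydroxyurea, an inhibitor of ribonucleotide reductase, until it was removed after 24 h. A further 12 libraries were single BDF1 cumulus cells, the donor cell type. No source used here gives the age of the animals, or names an animal, a collection day or a culture, so p-values measure only the spread between these embryos and the 12 cells count as 1 sample without a test.

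SWI/SNF complexes use the energy of ATP to slide or evict nucleosomes and so change which DNA is accessible. Each complex carries 1 of 2 alternative ATPases, Smarca4 (BRG1) or Smarca2 (BRM), around a core that includes Smarcb1 and the scaffold proteins Smarcc1 and Smarcc2, and the canonical form also holds Arid1a or Arid1b. In the mouse, Smarca4 stored in the oocyte is known to be needed for activation of the embryonic genome at the 2-cell stage. Smarca5 (SNF2H) is listed with these genes but is the ATPase of ISWI, another remodeller family that spaces nucleosomes.

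The sequence just upstream of the gene is shown for 4 members: Smarca2 and Arid1a, which took a much smaller share of cumulus cell than of embryo counts, and Smarca4 and Smarcb1, which did not. RefSeq's promoter table (GRCm38.p6) held 9 of the 10 members, and for 6 of these it covered the 100 bases before the first annotated start. Capitals mark CpG dinucleotides, the sites of DNA methylation. The windows are chr19:26604950-26605049 on the plus strand for Smarca2, chr9:21616069-21616168 on the plus strand for Smarca4, chr4:133756770-133756869 on the minus strand for Arid1a and chr10:75921618-75921717 on the minus strand for Smarcb1.
Smarca2: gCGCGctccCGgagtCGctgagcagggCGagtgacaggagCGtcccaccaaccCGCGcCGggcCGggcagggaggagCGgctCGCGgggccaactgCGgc
Smarca4: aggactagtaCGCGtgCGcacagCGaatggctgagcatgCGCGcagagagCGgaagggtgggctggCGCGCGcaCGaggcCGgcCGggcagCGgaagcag
Arid1a: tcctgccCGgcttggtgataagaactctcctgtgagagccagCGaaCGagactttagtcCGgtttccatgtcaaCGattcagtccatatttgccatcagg
Smarcb1: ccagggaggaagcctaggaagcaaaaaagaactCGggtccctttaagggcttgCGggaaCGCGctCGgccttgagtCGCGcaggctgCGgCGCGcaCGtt
The windows of Smarca2 and Smarca4 each held 14 CpG, that of Smarcb1 held 11 and that of Arid1a held 5. Across the 6 member windows the number ran from 5 to 19, against a median of 3 in the 100 bases before 32851 RefSeq starts. The alternative ATPases, Smarca2 and Smarca4, had equal CpG counts in this window. A relation of CpG counts to transcript levels was not tested. Methylation was not measured.

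Control embryos held 1801261 to 3472116 gene counts, HU embryos 2442541 to 3757492 and cumulus cells 317195 to 4051494, with 2 cells under 1000000. The 45S pre-rRNA row, Rn45s, took 16.2% to 32.5% of gene counts in control embryos and 15.2% to 28.98% in HU embryos, but 49.3% to 86.6% in cumulus cells. Oocyte and cumulus markers set the embryos apart from the cells. The summed level of 8 oocyte genes was 3197 to 4431 CPM (counts scaled to a common library total) in control embryos. In the cells it was 0 to 3.56 CPM, and 6 of the 8 had no count there. The sum of 13 cumulus and granulosa genes was 22.4 to 129 CPM in control embryos and 245 to 4232 CPM in the cells. A sum of 7 genes typical of the 2-cell stage varied widely, from 184 to 1927 CPM in control and 95.5 to 2102.5 CPM in HU embryos. It was 0 to 8.54 CPM in the cells. Endothelial genes summed to 32.2 to 60.3 CPM in control embryos and 0 to 20.1 CPM in the cells. Immune genes summed to 1.73 to 32.9 and 0 to 122 CPM. Sums of theca and stroma and of erythroid genes were at most 13.3 CPM.

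Among control embryos, the members spanned more than 10-fold in level per transcript length. On the FPKM scale (counts per length and library size), which allows genes to be compared, Smarcb1 was the highest at 46.6 ± 12.3 (SD, n = 9), followed by Smarca2 at 44.9 ± 10.5 and Arid1a at 32.1 ± 5.53. Smarca5 stood at 23.9 ± 7.38 FPKM, Smarce1, an HMG-domain subunit, at 15.1 ± 4.62, Smarcc1 at 11.2 ± 7.13 and Smarca4 at 11.2 ± 3.66. Arid1b was at 8.47 ± 1.90 FPKM, Smarcc2 at 3.97 ± 3.22, and Smarcd1, an accessory subunit that contacts transcription factors, was the lowest at 3.27 ± 2.89. Smarcb1 and Smarca2 lay at the 87.7 and 87.1 percentiles of the control FPKM of the genes tested, and Smarcd1 at 22.4.

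Not every step in that order exceeded the spread between embryos. Each neighbouring pair was compared within embryos with a 2-sided exact sign-flip permutation test, adjusted by Benjamini-Hochberg over the 9 steps. This test was added after the values had been seen. The same control embryos set the order and entered the test, so the p-values are not those of pairs fixed beforehand. Arid1a was above Smarca5 in 8 of 9 embryos, Smarca5 above Smarce1 in 8 of 9 and Arid1b above Smarcc2 in 8 of 9 (exact permutation adjusted p = 0.0352 for each). The other 6 steps did not pass, among them Smarcb1 against Smarca2 (exact permutation adjusted p = 0.840) and Smarca2 against Arid1a (exact permutation adjusted p = 0.0527). In HU embryos Smarcb1 and Smarca2 again held the first and second place, at 44.4 ± 14.0 and 40.6 ± 11.7 FPKM (SD, n = 8). The rest of the order was not fully kept there. By mean, Smarca5 at 32.3 ± 22.5 FPKM was above Arid1a at 31.8 ± 6.18. Smarce1 at 10.5 ± 3.22 FPKM was below Smarca4 at 11.1 ± 1.86 and Smarcc1 at 10.7 ± 3.92. The steps were not tested in HU embryos.

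The members also differed in how much they varied from embryo to embryo. The coefficient of variation of the TMM-scaled CPM (CPM after a correction of library size for composition) in control embryos was 20.2% for Arid1a, 20.5% for Smarca2 and 23.8% for Arid1b, against 60.1% for Smarcc1, 83.2% for Smarcc2 and 86.0% for Smarcd1. The highest control embryo exceeded the lowest by 1.94-fold for Smarca2 and by 28.7-fold for Smarcd1. Counts behind the latter ran from 3 to 79 per control embryo, while those behind Smarca2 ran from 324 to 1017. The variation between embryos fitted by edgeR lay below the trend for genes of like abundance in 7 of 10 members, and did so in 64.2% of all genes tested.

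**Figure D1:**
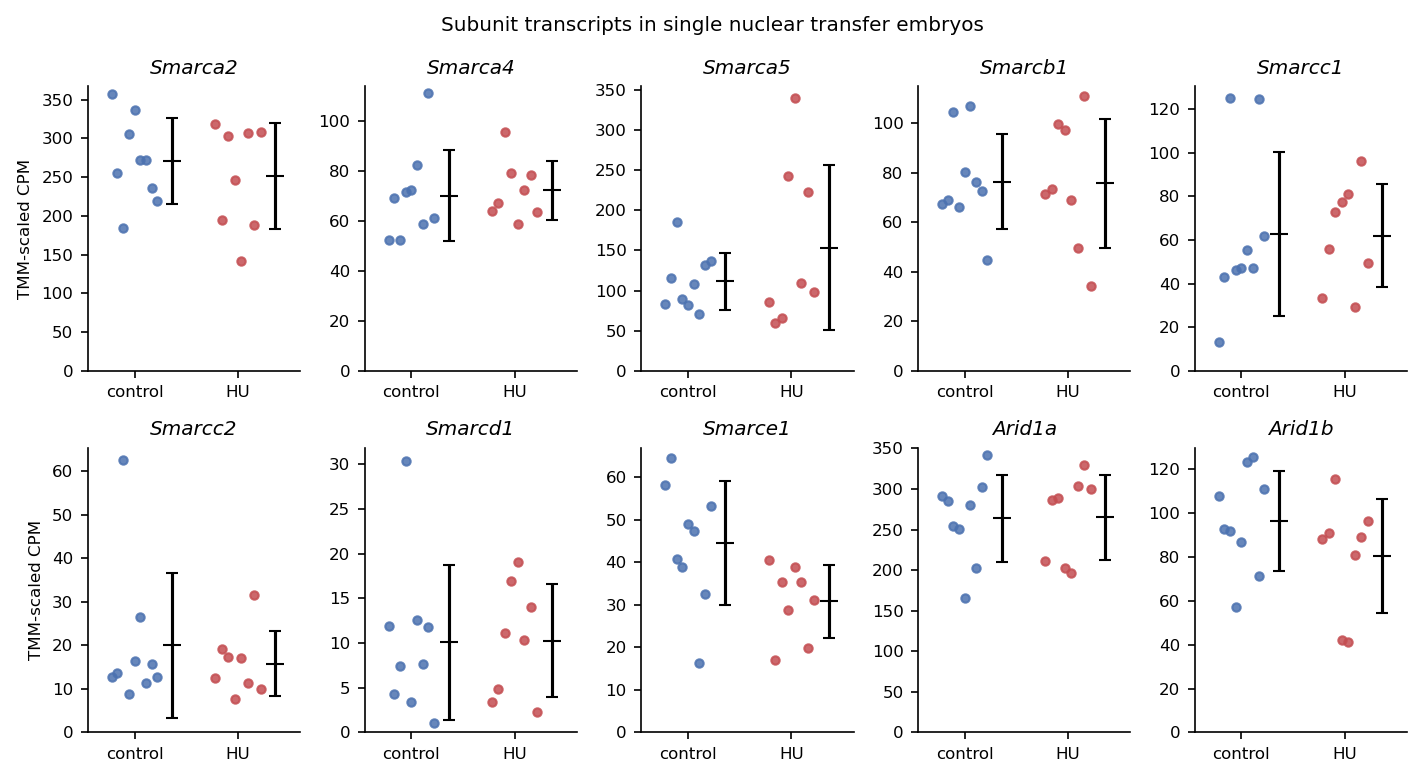
TMM-scaled CPM of each of the 10 genes (vertical axes, each from 0) in 9 control and 8 HU embryos; each point is 1 embryo and the bars give mean ± SD. The groups overlap for all 10 genes, and 3 HU embryos lie above every control embryo for Smarca5.

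The comparison of HU with control embryos addresses whether exposure to the drug alters transcripts of the embryo, here those of the remodeller subunits. No member passed the test: with edgeR's quasi-likelihood test and Benjamini-Hochberg adjustment over 11476 genes, 0 of 10 had an adjusted p under 0.05, as did 0.0% of all genes, and the smallest adjusted p of a member was 0.835. At an unadjusted p under 0.05 it was also 0 of 10, against 5.85% of all genes. DESeq2 called none of the 10 and 3 genes in all. Of the members, 4 had a log2 fold change above 0 and 6 below, with a median of -0.01, beside 0.04 over all genes, and the values of the groups overlapped for 10 of 10. Groups that do not overlap were rare in general, at 0.0174% of all genes, so this count does not set the members apart.

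Both ATPases of SWI/SNF were at similar levels in the groups. Smarca4 in control embryos had a lowest, median and highest value of 52.3, 69.3 and 111 TMM-scaled CPM, and in HU embryos of 58.8, 69.8 and 95.5. All HU embryos lay inside the control range, and the log2 fold change was 0.04 ± 0.18 (SE), with a 95% interval from -0.32 to 0.41. This and the later intervals of log2 fold changes are normal approximations from the SE, and can be narrower than the test allows. Smarca2 ran from 184 over a median of 272 to 357 CPM in controls and from 141 over 275 to 319 CPM in HU embryos. A single HU embryo lay below the control range, and the log2 fold change was -0.11 ± 0.18, with an interval from -0.47 to 0.25.

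The core and scaffold subunits gave wide intervals around small differences. Smarcb1 ran from 44.8 over 72.6 to 107 CPM in controls and from 34.1 over 72.4 to 111 CPM in HU embryos, a log2 fold change of -0.01 ± 0.23. Smarcc1 ran from 13.3 over 47.3 to 125 CPM in controls and from 29.5 over 64.5 to 96.1 CPM in HU embryos (-0.01 ± 0.34). The HU embryos lay inside the control range for Smarcc1 and all but 2 did so for Smarcb1. Smarcc2 had medians of 13.6 and 14.8 CPM and a log2 fold change of -0.33 ± 0.40, which became 0.09 without control embryo 3, its highest at 62.5 CPM. For Smarcd1, with medians of 7.68 and 10.7 CPM, the interval of the log2 fold change ran from -1.03 to 1.08, so that a 2-fold difference either way lies inside it.

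The largest difference among the members was that of Smarce1. Control embryos had 16.3, 47.3 and 64.6 CPM (lowest, median, highest) and HU embryos 16.95, 33.2 and 40.6 CPM. None of the 8 HU embryos reached the control median, yet 8 of 8 lay within the control range. That range rests on control embryo 7: without it the lowest control was at 32.6 CPM, and 4 of 8 HU embryos lay within the range and 4 below. The means were 44.6 ± 14.5 (SD, n = 9) and 30.9 ± 8.64 CPM (SD, n = 8), and the log2 fold change of -0.53 ± 0.26 did not pass in edgeR (unadjusted p = 0.0551, adjusted p = 0.835). DESeq2 gave an unadjusted p of 0.0429 and an adjusted p of 0.682, and over all other settings run in edgeR, limma and DESeq2, including each embryo left out, the adjusted p of Smarce1 ran from 0.495 to 1.00. Its transcripts share 8.58% of their 50-base stretches with the pseudogene Smarce1-ps1. How far this makes the counts of Smarce1 uncertain was not measured.

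Smarca5, the ISWI ATPase, had a higher mean in HU embryos that rested on a few of them. Control embryos ran from 70.7 over 109 to 185 CPM, and HU embryos from 60.2 over 104 to 340 CPM. HU embryos 4, 5 and 7, at 243, 340 and 223 CPM, were above every control embryo, and 2 of the others were below every control embryo. The means were 111 ± 35.8 and 153 ± 103 CPM, and the log2 fold change of 0.46 ± 0.31 (edgeR adjusted p = 0.848) was 0.18 without HU embryo 5. Those 3 embryos also had high sums of 7 genes typical of the 2-cell stage, at 1643, 1175 and 2445 TMM-scaled CPM, against 103 to 967 in the other 5 HU embryos. Over the 17 embryos, centred within group, Smarca5 and this sum gave r = 0.60 (permutation p = 0.0377, adjusted p = 0.108 over 20 relations) and rho = 0.28 (permutation p = 0.295, adjusted p = 0.482), with r = 0.46 without the 2 farthest embryos, which did not pass. Smarca5 shares 15.6% of its 50-base stretches with the pseudogene Smarca5-ps.

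The ARID subunits, which bind DNA and define the canonical complex, did not pass either. Arid1a ran from 165 over 280 to 342 CPM in controls and from 197 over 287 to 330 CPM in HU embryos, all inside the control range (log2 fold change 0.01 ± 0.16). Arid1b ran from 57.3 over 92.7 to 126 CPM and from 41.2 over 88.5 to 116 CPM (-0.26 ± 0.22), with 2 HU embryos below the control range.

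**Figure D2:**
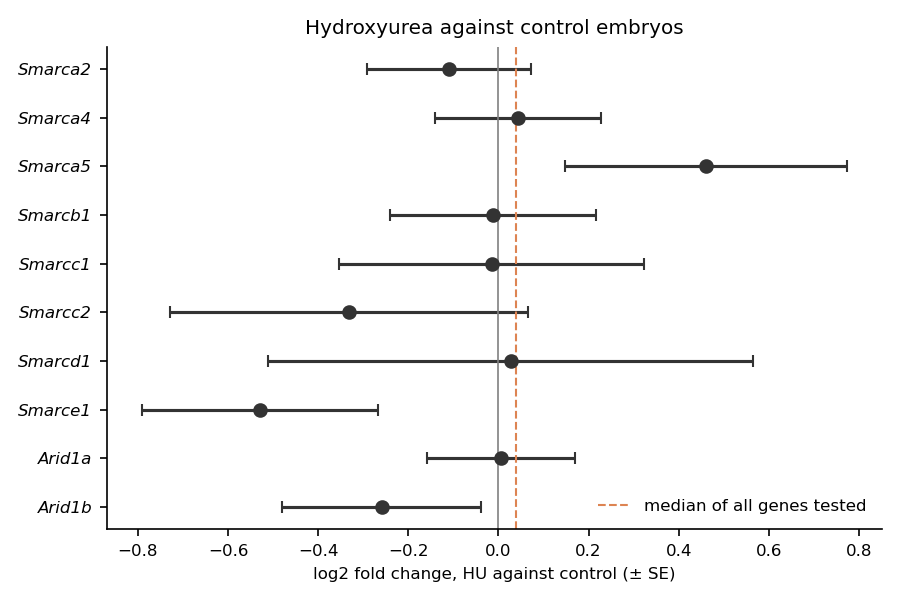
Log2 fold change of HU against control embryos with its standard error from edgeR for the 10 genes; the dashed line marks the median of all genes tested, 0.04. Smarca5 lies farthest to the right at 0.46 and Smarce1 farthest to the left at -0.53.

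Which of the alternative subunits prevails was compared as the log2 ratio of their FPKM (0.1 added to each). In embryos Smarca2 was the more abundant ATPase transcript: the ratio of Smarca4 to Smarca2 was -2.02 ± 0.45 in controls (SD, n = 9) and -1.81 ± 0.42 in HU embryos (SD, n = 8), and Smarca4 was the higher in 0 of 17 embryos. Smarca4 made up 20.1% ± 5.12 of the summed FPKM of the pair in controls and 22.4% ± 4.95 in HU embryos. Smarcc1 exceeded Smarcc2 in 16 of 17 embryos, with ratios of 1.47 ± 0.86 and 1.78 ± 0.64. Arid1a exceeded Arid1b in 17 of 17, with ratios of 1.92 ± 0.48 and 2.23 ± 0.37. The difference between HU and control was 0.20 ± 0.21 (SE) for the ATPases, 0.31 ± 0.36 for the scaffolds and 0.31 ± 0.21 for the ARID subunits. None passed a 2-sided exact permutation test, which ran through the 24310 ways to split the embryos (exact p = 0.356, 0.419 and 0.163, each 0.419 after Benjamini-Hochberg adjustment over the 3 ratios). The paralogs of each pair share 0 of their 50-base stretches. Smart-seq2 does not mark strand, and Smarca2 overlaps the antisense genes Gm20616 and 4931403E22Rik. Smarcc1 overlaps Dhx30 and Gm23377, and Arid1b overlaps Gm15599, all on the opposite strand. Overlap was judged over whole gene spans, not exons. Where exons overlap, reads of such partners cannot be told apart from those of the member. The same applies to Smarcd1 with Gm17349, Gm34939 and Gm17241. On the same strand, Smarca4 overlaps Gm27373, Smarca5 overlaps Gm45872 and Arid1a overlaps Mir7227.

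**Figure D3:**
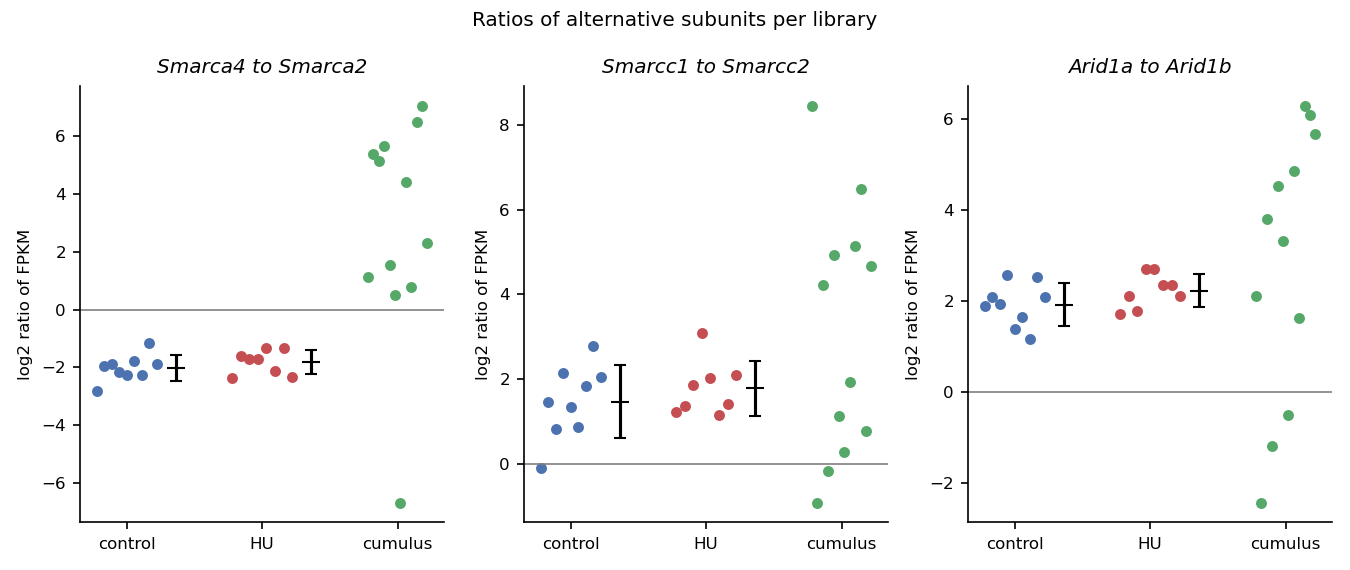
Log2 ratio of FPKM within each pair of alternative subunits per library, for 9 control embryos, 8 HU embryos and 12 cumulus cells, with mean ± SD for the embryos; the line at 0 marks equal levels. All 17 embryos lie below 0 for Smarca4 to Smarca2, and 11 of 12 cells lie above it.

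In the single cumulus cells the balance of the ATPases was the other way round. Their summed counts gave a log2 ratio of Smarca4 to Smarca2 of 1.62 with nothing added, or 1.59 with 0.1 FPKM added to each as in the embryos. Smarca4 was the higher in 11 of 12 cells and made up 75.5% of the pair. The ratio with nothing added does not depend on library size, so the share of Rn45s does not enter it. With nothing added, the ratio of Smarcc1 to Smarcc2 was 2.28 and that of Arid1a to Arid1b 3.07 in the summed cells. With 0.1 added they were 2.23 and 2.80, the same direction as in embryos.

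Each member was then set against control embryos as the CPM of the 12 summed cells over the mean control CPM (log2, 1 CPM added), with no test. Smarca2, Arid1a, Arid1b and Smarca5 were at least 2-fold lower in the cells, 4 of 10 members, where 54.0% of 11821 genes were that much lower; 0 of 10 were at least 2-fold higher, against 17.8% of genes. The median of the members was -0.87 and that of all genes -1.22. With Rn45s left out of library sizes the median of all genes became -0.25 and 38.7% were at least 2-fold lower, while the members at least 2-fold lower still numbered 4. All values are shares of a library, so less of a transcript and more of other RNA cannot be told apart.

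Arid1b had the lowest ratio. Its 113 counts in the summed cells gave 4.70 CPM (exact Poisson 95% interval 3.87 to 5.65, counting error only), against 96.0 ± 21.5 CPM in control embryos (SD, n = 9), a log2 ratio of -4.09, or -3.33 without Rn45s. Smarca2 had 19.9 CPM (interval 18.2 to 21.8) against 273 ± 63.8 CPM, with ratios of -3.71 and -2.82. Arid1a had 28.4 CPM (interval 26.3 to 30.6) against 262 ± 45.2 CPM, with ratios of -3.16 and -2.27. For each of these 3 genes, 12 of 12 cells lay below the lowest control embryo, 3 of 10 members, as they did for 24.1% of the 11821 genes.

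Smarca5 reached 25.2 CPM in the cells against 111 ± 34.2 CPM, with ratios of -2.09 with and -1.21 without Rn45s, and 11 of 12 cells lay below the control range. The other 6 members were within 2-fold on both scales. Smarca4 had 64.2 CPM in the cells against 71.2 ± 23.4 CPM (-0.15; 0.77 without Rn45s), and Smarcb1 had 66.6 against 77.1 ± 20.4 CPM (-0.21; 0.71). Smarcc1 gave -0.11 and 0.81, Smarcd1 0.05 and 0.95, Smarcc2 -0.84 and 0.03, and Smarce1 -0.90 and -0.01. The side of 0 on which Smarca4, Smarcb1, Smarcc1 and Smarcc2 fall therefore depends on whether Rn45s is counted.

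Single cells scattered widely: Smarca4 ran from 0 over a median of 70.5 to 106 CPM, Smarcb1 from 0 over 71.9 to 173 CPM and Smarca2 from 0 over 9.24 to 61.9 CPM. A count was present in 11, 10 and 10 of 12 cells, and in all 12 for Smarcc1 and Smarce1. On the FPKM scale of the summed cells Smarcb1 stayed the highest member at 40.2, and Smarca2, second in control embryos, was eighth at 3.27.

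**Figure D4:**
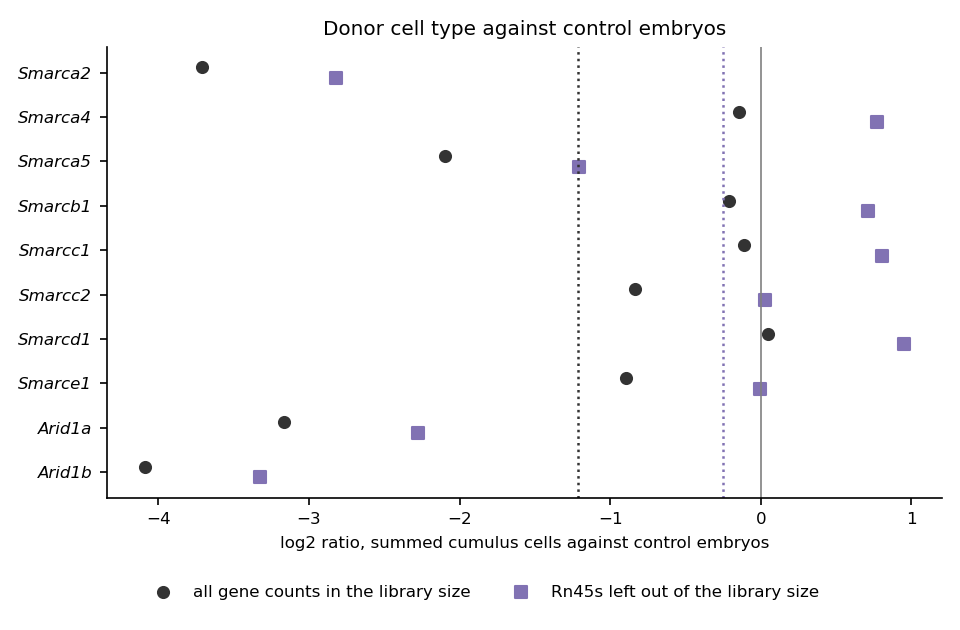
Log2 ratio of the 12 summed cumulus cells to control embryos for the 10 genes, with library sizes over all gene counts (circles) and with Rn45s left out (squares); the dotted lines mark the median of all genes on each scale, -1.22 and -0.25. Arid1b, Smarca2 and Arid1a lie left of both medians on both scales.

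Whether members varied together was examined over the 17 embryos, after centring log2 TMM-scaled CPM within each group; this family of 45 pairs was added after the data had been seen. The median Pearson r was 0.02, and r was above 0 in 23 of 45 pairs. None passed Benjamini-Hochberg adjustment by Pearson and 8 had an unadjusted permutation p under 0.05. The lowest was Smarca2 with Smarcc1, at r = -0.68 (permutation p = 0.00127, adjusted p = 0.0571) and Spearman rho = -0.80 (permutation p = 0.00032, adjusted p = 0.0144), so that it passed by rank only. It was -0.81 within controls, -0.65 within HU embryos and -0.65 without the 2 embryos farthest from the median of Smarca2. Smarca2 with Smarca5 gave r = -0.68 (permutation p = 0.00916, adjusted p = 0.150) and rho = -0.67 (permutation p = 0.00692, adjusted p = 0.104), and r was -0.44 without the 2 farthest embryos. Levels are shares of 1 library, so they are not independent of each other. The share of all gene pairs with an unadjusted permutation p under 0.05 was not computed, so the 8 pairs do not set the members apart.

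**Figure D5:**
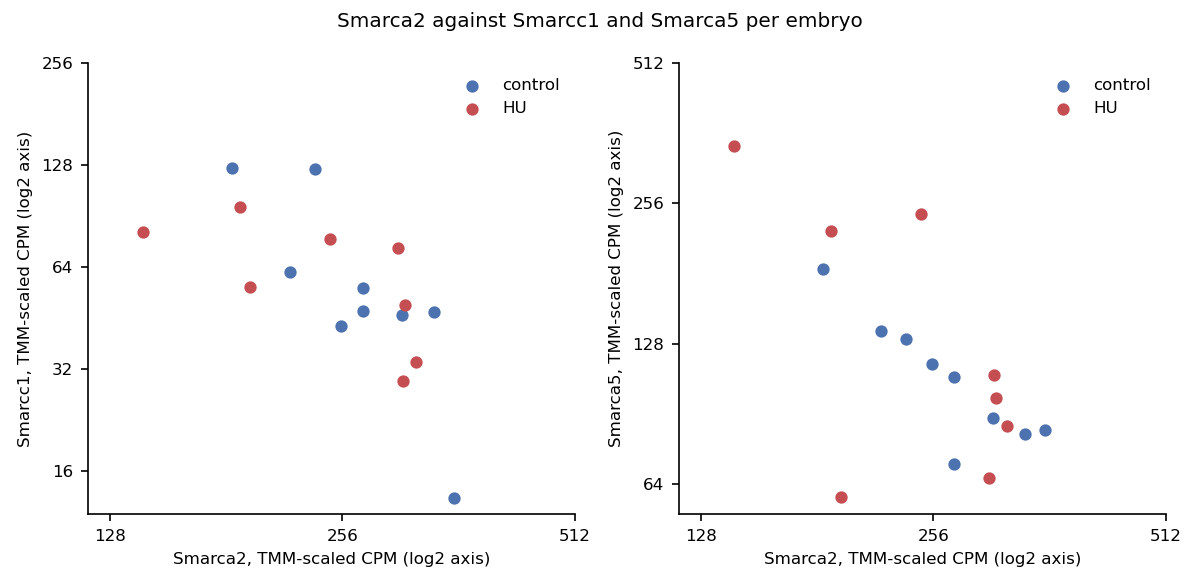
TMM-scaled CPM of Smarca2 (horizontal, log2 axis) against Smarcc1 (left) and Smarca5 (right) in 9 control and 8 HU embryos, 1 point per embryo. Embryos with more Smarca2 tended to have less Smarcc1, at a within-group r of -0.68. This pair did not pass adjustment by Pearson (adjusted permutation p = 0.0571) and passed by rank only.

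Members were also related to the summed levels of the 2-cell and oocyte marker genes, another family added after the data had been seen, of 20 relations. By Pearson 3 passed adjustment (adjusted permutation p = 0.0467 each) and by Spearman 0 did. An r at least as far from 0 as the weakest of these was also common among all genes tested outside the marker list, at 11.5% for the 2-cell sum and 7.19% for the oocyte sum, so the count is not particular to the members. Smarcb1 gave r = 0.70 (permutation p = 0.00512) and rho = 0.56 (permutation p = 0.0286, adjusted 0.1003) with the 2-cell sum, and r = 0.59 without the 2 farthest embryos. Smarcc1 gave r = 0.64 (permutation p = 0.00517) and rho = 0.71 (permutation p = 0.00374, adjusted 0.0748) with the 2-cell sum and r = 0.48 without the 2 farthest. With the oocyte sum, Smarcc1 gave r = -0.59 (permutation p = 0.00700) and rho = -0.64 (permutation p = 0.00992, adjusted 0.0800), and r = -0.66 without the 2 farthest. Within groups, the r of Smarcc1 with the 2-cell sum was 0.50 in controls and 0.92 in HU embryos, a difference that was not tested. Smarca2 went the other way and did not pass. It gave r = -0.56 with the 2-cell sum (permutation p = 0.0374, adjusted 0.108) and r = 0.62 with the oocyte sum (permutation p = 0.0180, adjusted 0.0721). Whether Smarca2 and Smarcc1 are related apart from these sums was not tested.

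The genes whose levels followed 3 of the members most closely over the 17 embryos were taken from 6556 genes with a mean of at least 20 CPM, as a description. For Smarca4 these were Etv5, Xylb and Slc44a2 (Pearson r 0.73, 0.73 and 0.69). For Arid1a they were Wwc2, Nckap1 and Clasp2 (0.88, 0.87 and 0.85), and for Smarca5 they included Ddx49 and Gabpb2 (0.91 and 0.88). Each r was picked as among the highest of 6556, and how high such maxima run by chance was not computed.

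Other remodeller genes were described from 4 lists of 66 genes, of which 62 were tested for HU. None passed edgeR's adjusted p, and 5 higher and 2 lower had an unadjusted p under 0.05, 7 of 62 beside the 5.85% of all genes. The median log2 fold change was 0.06, beside 0.04 over all genes. Of the 18 tested other SWI/SNF subunits only Actl6a, an actin-related subunit, was among the 7, at 74.9 ± 32.5 CPM in controls (SD, n = 9) and 138 ± 79.7 CPM in HU embryos (SD, n = 8), a log2 fold change of 0.88 ± 0.30 (edgeR adjusted p = 0.829). Chd7, a nucleosome remodeller of the CHD family, had 103 ± 24.1 and 151 ± 30.8 CPM (0.55 ± 0.18), and 5 of 8 HU embryos lay above every control. The remaining higher values were 0.77 for Chd1, 1.04 for Chd3 and 0.91 for Ino80, the ATPase of the INO80 complex. Baz2a, a partner of Smarca5, had -0.48 ± 0.17 and Atrx -0.37 ± 0.18, and the adjusted p was 0.829 for all but Atrx, at 0.835.

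The most abundant genes of the lists in control embryos, on the FPKM scale, were Bcl7c at 274 ± 48.3 and Actb at 189 ± 62.1 among other SWI/SNF subunits, Pole3 at 140 ± 47.9 and Rbbp7 at 123 ± 47.8 in the ISWI list, Mta2 at 71.3 ± 26.4 and Gatad2a at 41.8 ± 5.16 in the CHD and NuRD list, and Yeats4 at 237 ± 40.1 and Vps72 at 54.4 ± 8.18 in the last list (SD, n = 9). In cumulus cells 40 of 62 listed genes were at least 2-fold lower than in control embryos and 4 at least 2-fold higher, beside 54.0% and 17.8% of all genes. Chd7 and Hells, an SNF2-family helicase, had the lowest log2 ratios at -6.44 and -5.97, with 5 and 4 counts in the summed cells. The highest were Smarca1, the other ISWI ATPase, at 5.51 and Actb at 3.11. Smarca1 had 1270 counts and 52.8 CPM in the cells against 5 counts and 0.184 CPM in the control embryos, while its relative Smarca5 was lower in the cells.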

How the data were processed

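Smart-seq2 libraries of 9 control embryos, 8 HU embryos and 12 cumulus cells were analysed. The authors deposited raw counts per gene and FPKM values. The submitters' processing notes name mm10 as the build and STAR 2.7.3a, FastQC and R 4.0.2 as tools. Which counter, annotation and strand option they used is not given in the sources used here. For 18588 genes the deposited FPKM equalled the count over the library sum and 1 gene length (tolerance 0.001).

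The 92 ERCC spike-in rows were left out, and 0 columns were left unmapped. The 17 embryos were fitted with edgeR 4.0.16 in R 4.3.3 (TMM, filterByExpr, quasi-likelihood test, Benjamini-Hochberg adjustment over 11476 genes, threshold 0.05); the fit was tested on simulated data. Library sizes were recomputed after the filter on low counts; a first fit kept them over all rows and was replaced after its output had been seen. Alternatives used limma 3.58.1 and DESeq2 1.42.0. Cells were compared over genes at 5 CPM or more in either group. Positions follow GENCODE M21 (GRCm38).

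Depth per library is given with the results; a count of 0 allows up to 3 counts. Reads carry no molecular identifiers, so intervals cover counting error only. Embryos that share a number were not treated as pairs.

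The members and gene lists were chosen with earlier results of these data known. Named genes are all members; other remodeller genes with an unadjusted p under 0.05, the 2 of highest control FPKM per list, and the 2 highest and 2 lowest ratios in cells; and the 3 genes most like Smarca4, Arid1a and Smarca5, with predicted genes, Rik clones and pseudogenes left out. A gene that the rule names is not reported here.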

Additional observations from a re-analysis of the deposited data

Results flagged for a closer look

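Among 26 sets of embryo values examined for a single value far from the rest, 2 stood apart, and chance alone flags about 1 in 20. Control embryo 1 had the lowest Smarcc1 at 13.33 CPM; it also had the highest Smarca2 of the controls, at 357 CPM. Control embryo 7 had the lowest Smarce1 at 16.28 CPM, and without it the log2 fold change of Smarce1 in HU embryos was -0.65 (edgeR unadjusted p = 0.0123, adjusted p = 0.916). With each embryo left out in turn, that fold change ran from -0.65 to -0.44, so -0.65 is the far end of the range. It was -0.47 with limma-voom (unadjusted p = 0.105) and -0.33 with ERCC scaling in edgeR (unadjusted p = 0.320).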

How the results depend on the processing

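No member passed the adjusted threshold under any alternative run. Over all genes, DESeq2 called 2 higher and 1 lower where edgeR called 0. ERCC scaling moved the log2 fold change of every member upward. At an unadjusted p under 0.05, 437 genes were higher and 234 lower in the main fit. These numbers were 350 and 356 with limma-voom and 617 and 25 with ERCC scaling. They were 1193 and 797 with no filter on low counts, and 42 and 18 with all 3 groups in the fit. With 1 embryo left out, 0 to 1 genes passed as higher and 0 to 0 as lower, and 282 to 642 and 158 to 424 had that unadjusted p. The cause was not tested. Library sizes over all gene rows, the setting used first, gave 419 and 250, with an unadjusted p of 0.0502 for Smarce1.

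Smarca5, Smarce1 and Arid1b kept their direction under every alternative. The other members did not, Smarcc2 at -0.33 among them. Arid1a became -0.0013 with DESeq2, -0.0014 with RLE factors, -0.0104 with library size only, -0.0178 with no filter, -0.0074 with Rn45s left out, -0.0139 with 3 groups and -0.0044 with library sizes over all rows. Smarcd1 became -0.0453 with library size only, -0.000024 with no filter, -0.00023 with Rn45s left out, -0.0064 with 3 groups and -0.15 with the replicate block. Smarcc1 became 0.13 with limma-voom, 0.0654 with ERCC scaling and 0.16 with the replicate block. ERCC scaling gave 0.0399 for Smarca2 and 0.11 for Smarcb1, and library size only gave -0.0029 for Smarca4. With 1 embryo left out the ranges were -0.0708 to 0.0573 for Arid1a, -0.0236 to 0.143 for Smarca4, -0.128 to 0.0746 for Smarcb1, -0.16 to 0.17 for Smarcc1, -0.565 to 0.0920 for Smarcc2 and -0.16 to 0.43 for Smarcd1. The replicate block gave no other reversal. Deviations of same-numbered embryos correlated at -0.10 to 0.19, over 0.1 in 1 of 8 pairs. Such weak correlations do not settle whether a shared number marks a shared origin.

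With 1 cell left out, 4 to 5 members were at least 2-fold lower in cumulus cells and 0 to 0 higher. Without the 2 cells under 1000000 counts, a setting added after seeing the data, 4 were lower. No paralog ratio changed direction or passed. A promoter motif search differed between the settings tried and is given only here. The GC box (GGGCGG or its reverse complement) was in 0 of 6 member windows of 100 bases before the first annotated start, in 4 of 10 windows of 100 bases before the RefSeq start, both against 24.7% of promoters, and in 7 of 10 windows of 150 bases before the RefSeq start, against 28.6%. The last was tried first and was replaced after its result was seen, to keep transcribed bases out; the middle one was added later. The settings differ in length, in the start and in which members have a window, and their parts were not separated. Each set of 10 windows comes from 9 members, because every promoter entry of a member was counted. The TATA box (TATAAA) and CCAAT, on both strands, were in 0 member windows in any of the 3 settings. Over all promoters, 5.6% of windows of 100 bases and 7.6% of 150 bases held the TATA box. For CCAAT these shares were 18.9% and 24.5%. A difference of the members from these shares was not tested.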
